A study of Mus musculus with 17 samples.

Results

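The genes that let muscle burn ketone bodies were followed in tibialis anterior muscle, which lies along the shin and is built mostly of fast fibres. They are Bdh1, Oxct1 and Acat1, the mitochondrial enzymes of ketone body use, and Slc16a1, the monocarboxylate transporter MCT1. All probe sets (groups of probes that read 1 transcript) annotated to exactly 1 of these 4 symbols were taken, which gave 10 of the 22626 probe sets tested: 2 for Bdh1, 4 for Oxct1, 3 for Acat1 and 1 for Slc16a1. Bdh1 was chosen by its measured level on these same arrays, low in mdx muscle and back in fiona muscle, so its values are given as a description with no test. Oxct1, Acat1 and Slc16a1 were tested.

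The data are 17 Affymetrix arrays, each hybridised with RNA of a different sample. The 5 fiona arrays held muscle of a transgenic line that expresses utrophin at a high level on the mdx background, and utrophin is a protein related to dystrophin. The 6 mdx arrays held muscle of mdx mice, which lack dystrophin through a mutation in its gene, and the 6 normal arrays held muscle of wild-type mice. The fiona mice thus carry the mdx mutation too. All mice were labelled as male and killed at 56 days. Left and right muscles were combined, and each array received target made from 8 µg of RNA. The promoter that drives the transgene, the number of founder animals and the strain of the normal mice are not given in the sources used here. Samples of a group are labelled as biological replicates.

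Ketone bodies are small fuels that the liver makes from fatty acids and other tissues oxidise. Blood 3-hydroxybutyrate and acetoacetate enter fibres through monocarboxylate transporters such as MCT1. In mitochondria 3-hydroxybutyrate is oxidised to acetoacetate by the product of Bdh1, acetoacetate is joined to coenzyme A by the product of Oxct1, and acetoacetyl-CoA is split to acetyl-CoA for the citrate cycle by the product of Acat1. Oxidative fibres use ketone bodies more than fast glycolytic fibres do, and Acat1 also serves the breakdown of isoleucine.

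The deposited values are log2 expression values, on which 1 unit is a doubling, and levels are compared only between arrays for the same probe set. The genotype labels were borne out by Dmd, the dystrophin gene, whose probe set 1417307_at read 3.23 to 3.53 on fiona, 3.27 to 3.52 on mdx and 6.33 to 6.88 on normal arrays. Utrn, the utrophin gene, read 2.48 to 7.28 on fiona, 2.04 to 2.10 on mdx and 2.07 to 2.17 on normal arrays with its probe set 1427569_a_at, so that every fiona array lay above all others. With 1426892_at fiona array 2, at 2.68, lay within the range of the normal arrays. Muscle genes such as Ckm and Acta1 were high throughout, with a mean level of the 10 muscle identity genes of 13.11 to 13.55 on fiona, 13.03 to 13.45 on mdx and 13.13 to 13.58 on normal arrays. The median of 15 unspiked bacterial control probe sets served as the control level of an array. It lay at 2.75 to 2.99 on fiona, 2.65 to 2.75 on mdx and 2.64 to 2.87 on normal arrays. Utrn lay under it with 1427569_a_at on fiona array 5 (2.48, control level 2.99) and on all mdx and normal arrays. With 1426892_at fiona array 2 lay under it too (2.68, control level 2.75). These probe sets thus do not both show utrophin signal on every fiona array. Apart from the groups, the arrays fell into 2 sets along the main direction of the remaining variance (42.7% of it). Set 1 held fiona arrays 1 and 4, mdx arrays 3 to 5 and normal arrays 3 to 5, and set 2 held the rest. Against the male label, 7 arrays showed a female pattern, with high Xist and low Eif2s3y: 4 of 5 fiona, 2 of 6 mdx and 1 of 6 normal arrays. A further array, mdx array 6, had signal for both genes.

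Because Bdh1 carries the largest differences among the 4 genes, the bases before its 2 annotated starts are shown, with those of Oxct1 and Slc16a1 to compare. They are the 250 bases upstream of each start in the RefSeq table for GRCm38.p6, all on the plus strand. Capitals mark GGTCA, the core of the half-site that nuclear receptors of the ERR and PPAR families bind, read on either strand. Acat1 is not among the genes found there.
Bdh1 start 1, chr16:31422047-31422296: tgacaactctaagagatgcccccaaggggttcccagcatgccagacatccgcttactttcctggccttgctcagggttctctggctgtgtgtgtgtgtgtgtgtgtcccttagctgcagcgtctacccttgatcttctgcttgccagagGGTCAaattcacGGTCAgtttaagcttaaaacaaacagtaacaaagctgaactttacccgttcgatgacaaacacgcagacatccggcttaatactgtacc
Bdh1 start 2, chr16:31428503-31428752: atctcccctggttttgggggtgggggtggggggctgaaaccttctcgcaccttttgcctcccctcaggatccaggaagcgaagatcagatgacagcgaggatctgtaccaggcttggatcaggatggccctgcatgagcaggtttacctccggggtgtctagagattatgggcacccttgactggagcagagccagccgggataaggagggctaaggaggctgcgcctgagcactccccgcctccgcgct
Oxct1, chr15:4026178-4026427: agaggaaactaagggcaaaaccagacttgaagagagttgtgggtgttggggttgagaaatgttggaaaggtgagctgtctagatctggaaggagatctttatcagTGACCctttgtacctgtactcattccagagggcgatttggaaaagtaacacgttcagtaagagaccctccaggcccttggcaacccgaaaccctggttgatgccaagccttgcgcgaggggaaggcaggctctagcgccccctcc
Slc16a1, chr3:104638414-104638663: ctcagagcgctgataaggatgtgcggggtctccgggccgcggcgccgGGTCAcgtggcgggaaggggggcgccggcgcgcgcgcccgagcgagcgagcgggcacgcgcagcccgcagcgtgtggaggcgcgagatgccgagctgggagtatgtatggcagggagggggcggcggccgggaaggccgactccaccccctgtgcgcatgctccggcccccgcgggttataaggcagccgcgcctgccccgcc

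The first Bdh1 start had 2 GGTCA matches, beginning at positions -101 and -89 from the start, and the second start had 0. Oxct1 had 1 match, on the minus strand at -145, and Slc16a1 had 1, at -203. The motif is common, with at least 1 match in 35.2% of the 32851 promoter windows of the table. The longer ERR element TCAAGGTCA (in 0.4% of windows) had 0 matches before any of these starts. Both strands were searched for each motif. The E-box CANNTG (66.2% of windows) had 1 match before the second Bdh1 start, at -165, and 1 before that of Slc16a1, at -200, where it overlaps the GGTCA. The TATA motif TATAA (22.8% of windows) matched only before Slc16a1, at -27 and -26 on the 2 strands of the same stretch. These matches describe the letters in the windows and show no binding.

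Bdh1 was far lower in mdx than in normal muscle. With its brighter probe set the mean of all fiona arrays lay much nearer to normal than to mdx. This was less marked in array set 2, where fiona minus mdx was 2.18 and fiona minus normal -1.45. With the dimmer probe set even the nearer group depended on which arrays were used. Its product, 3-hydroxybutyrate dehydrogenase, takes the first step of 3-hydroxybutyrate oxidation in mitochondria. With the brighter probe set, 1452257_at, the fiona arrays 1 to 5 read 7.28, 6.51, 4.44, 7.23 and 6.00. The mdx arrays 1 to 6 read 2.65, 4.56, 3.61, 2.00, 3.48 and 3.22, and the normal arrays 1 to 6 read 7.41, 6.88, 6.79, 6.71, 7.97 and 7.01. Every mdx array lay below every normal array. The fiona and mdx groups overlapped only through fiona array 3, at 4.44, and mdx array 2, at 4.56. The means were 6.29 ± 1.16 in fiona (SD, n = 5), 3.25 ± 0.87 in mdx and 7.13 ± 0.48 in normal muscle (SD, n = 6 each). Mdx arrays 1 and 4 lay at or under their control level, so that the level of Bdh1 there is only bounded from above.

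With those 2 arrays raised to the control level, Bdh1 was at least 13.4-fold lower in mdx than in normal muscle, a log2 difference of -3.75 (-3.87 as deposited). Fiona muscle was at least 7.52-fold above mdx muscle, a log2 difference of 2.91 (3.04 as deposited). Fiona minus normal was -0.84, or 1.79-fold lower, which is within 1 SD of the fiona arrays. In that comparison fiona arrays 2, 3 and 5 lay below every normal array, while arrays 1 and 4 lay above the normal mean. Of all probe sets, 4.49% had mdx and normal arrays that did not overlap. Since these contrasts chose Bdh1, nothing is read from that share. RNA of whole muscle was measured, so fewer fibres that express a gene and less of its RNA per fibre cannot be told apart here.

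The 2 array sets gave different sizes for Bdh1. In set 1 the 1452257_at difference was -4.12 for mdx minus normal, 4.22 for fiona minus mdx and 0.10 for fiona minus normal. In set 2 these differences were -3.63, 2.18 and -1.45. Fiona arrays 1 and 4, both of set 1, thus lay within the range of normal muscle, and fiona arrays 2, 3 and 5, all of set 2, lay below every normal array. The part of the array set in this was not tested, since Bdh1 was chosen on these contrasts. With the arrays of female pattern left out, the differences were -3.43, 3.51 and 0.08, but fiona was then array 4 alone.

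The second Bdh1 probe set, 1426959_at, was dimmer and gave the same order of group means with smaller differences. Fiona arrays 1 to 5 read 5.49, 5.26, 2.79, 3.20 and 3.37. Mdx arrays ran from 2.44 to 3.08 with a median of 2.67, and normal arrays 1 to 6 read 5.52, 5.61, 3.15, 3.16, 5.91 and 5.59. Normal muscle thus split into 4 arrays above 5.5 and 2 near 3.2, and fiona muscle into 2 arrays above 5 and 3 below 3.4. Of the mdx arrays, 4 of 6 lay at or under the control level, as did fiona array 3. The means were 4.02 ± 1.25 in fiona, 2.72 ± 0.21 in mdx and 4.82 ± 1.30 in normal muscle (SD). Mdx muscle was at least 4.13-fold lower than normal, with no overlap between the 2 groups, and fiona muscle was 2.37-fold above mdx, a log2 difference of 1.24 with the mdx arrays raised to the control level (1.30 as deposited). Fiona array 3 is itself under the control level, so this fold is no bound. Fiona minus normal was -0.80. In array set 1 the differences were -1.37 for mdx minus normal, 1.63 for fiona minus mdx and 0.27 for fiona minus normal, and in set 2 they were -2.85, 1.08 and -1.77. With the arrays of female pattern left out they were -1.92, 0.45 and -1.47. In these last 2 settings fiona muscle lay nearer to mdx than to normal muscle.

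The 2 probe sets disagreed on single arrays. Normal arrays 3 and 4 and fiona array 4 read 6.79, 6.71 and 7.23 with 1452257_at, far above every mdx array, but 3.15, 3.16 and 3.20 with 1426959_at. Normal arrays 3 and 4 were the lowest of the normal group with 1452257_at, though not far below the next. Both of them and fiona array 4 belong to array set 1. Over the 17 arrays the correlation between the probe sets was 0.77, and 0.49 after the group means were removed. These are descriptions over arrays that share groups and array sets. Which transcripts each probe set reads was not analysed here.

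**Figure D1:**
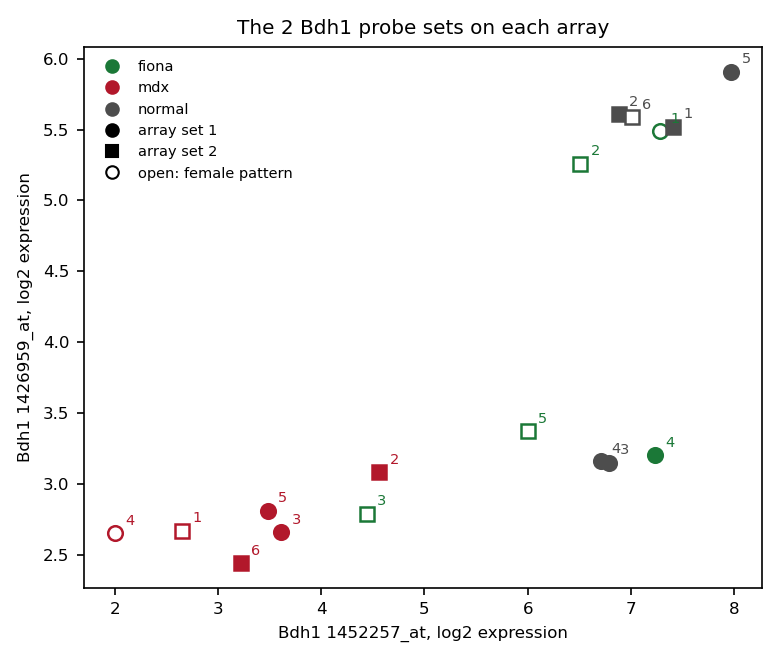
Log2 expression of Bdh1 on each of the 17 arrays with probe set 1452257_at (x axis) against probe set 1426959_at (y axis). Numbers are replicate numbers, colours are groups, circles are array set 1 and squares array set 2, and open symbols mark arrays of female pattern. All mdx arrays lie at the lower left, and normal arrays 3 and 4 with fiona array 4 sit at the lower right, high on 1452257_at and low on 1426959_at.

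Oxct1 differed far less than Bdh1. Its product, succinyl-CoA:3-oxoacid CoA transferase, is the step that commits ketone bodies to oxidation and is lacking in liver. With the brightest probe set, 1449059_a_at, fiona arrays 1 to 5 read 11.93, 11.54, 11.45, 11.34 and 11.35. Mdx arrays ran from 10.50 to 11.73 with a median of 11.62, and normal arrays from 11.74 to 12.22 with a median of 11.95. The 6 mdx arrays lay below the 6 normal arrays, though only just, since the highest mdx array read 11.73 and the lowest normal array 11.74. The means were 11.52 ± 0.24 in fiona, 11.39 ± 0.49 in mdx and 11.96 ± 0.18 in normal muscle.

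The Oxct1 difference did not pass the test across all probe sets. For mdx minus normal it was -0.56 on the log2 scale (SE 0.19, 95% interval -0.96 to -0.16, adjusted p = 0.124 in limma), or 1.48-fold lower. The exact two-sided permutation test of this probe set alone gave p = 0.00216, the smallest that 6 arrays against 6 allow, with no adjustment for the other probe sets. Mdx array 1 was the lowest, at 10.50, and without it the difference was -0.38. With the arrays of female pattern left out, among them mdx arrays 1 and 4, the difference was -0.29 (adjusted p = 0.09 in limma).

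Fiona muscle was not told apart from either group on this Oxct1 probe set. Fiona minus mdx was 0.13 (95% interval -0.29 to 0.55, adjusted p = 0.629 in limma), and fiona arrays lay on both sides of the mdx mean. Fiona minus normal was -0.43 (95% interval -0.85 to -0.01, adjusted p = 0.214), with 4 of 5 fiona arrays below every normal array and an exact permutation p of 0.0152 before any adjustment. Of all probe sets 0.00442%, a single one, was called in fiona against normal muscle.

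The other Oxct1 probe sets gave -0.36 (1436750_a_at), -0.36 (1428140_at) and -0.25 (1455804_x_at) for mdx minus normal, with adjusted p between 0.319 and 0.6 in limma. Their fiona minus mdx differences were -0.25, 0.21 and 0.24, and their fiona minus normal differences were -0.61, -0.15 and -0.01. They do not track one another well. Probe set 1436750_a_at lay 1.37 higher in array set 1 than in set 2 once the group means were removed, and 1428140_at lay 0.46 lower, a shift of -0.46. The correlation between this pair over the 17 arrays was -0.30, against 0.78 between 1449059_a_at and 1455804_x_at. Probe sets 1436750_a_at and 1455804_x_at were designed from the same source sequence per the probe table, and the suffix of the second marks probes that can match other transcripts.

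Acat1 showed a difference of similar size to that of Oxct1. Its product, mitochondrial acetoacetyl-CoA thiolase, yields the acetyl-CoA that enters the citrate cycle. With the brightest probe set, 1424183_at, fiona arrays 1 to 5 read 10.43, 10.50, 9.38, 10.13 and 9.93. Mdx arrays ran from 9.57 to 10.27 with a median of 10.04, and normal arrays from 10.34 to 10.59 with a median of 10.44. Mdx and normal arrays did not overlap, and fiona arrays spread over both groups, with array 3 below every mdx array. The means were 10.07 ± 0.45 in fiona, 10 ± 0.27 in mdx and 10.44 ± 0.09 in normal muscle.

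For Acat1, mdx minus normal was -0.44 with 1424183_at (SE 0.17, 95% interval -0.79 to -0.09, adjusted p = 0.182 in limma), or 1.36-fold lower. Replicate numbers were taken to pair the mdx and normal arrays. Same-numbered arrays also share an array set, so pairing and array set cannot be told apart. With the replicate number as a block over those 12 arrays the same difference had an adjusted p of 0.0338 in limma. The call therefore depends on whether this block is used. The probe set 1424182_at gave -0.56 (SE 0.17, 95% interval -0.92 to -0.21, adjusted p = 0.0814), and 1451271_a_at gave -0.53 (adjusted p = 0.308). With the array set as a block these 2 had adjusted p of 0.0282 and 0.0404.

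The values of these 2 Acat1 probe sets spread as follows. With 1424182_at fiona arrays 1 to 5 read 9.67, 9.04, 8.74, 8.97 and 8.82, mdx arrays 8.30 to 9.06 and normal arrays 9.07 to 9.81. Mdx and normal arrays were barely separate. With 1451271_a_at fiona arrays read 10.71, 10.25, 9.29, 10.64 and 9.44, mdx arrays 9.22 to 10.35 and normal arrays 9.99 to 10.64, and all groups overlapped. The 3 Acat1 probe sets come from the same source sequence per the probe table, and correlated at 0.71 to 0.82 over the 17 arrays, so they are not 3 separate measurements of the gene.

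Fiona minus mdx was 0.07 for Acat1 with 1424183_at (95% interval -0.30 to 0.44, adjusted p = 0.771 in limma), 0.31 with 1424182_at (adjusted p = 0.174) and 0.32 with 1451271_a_at (adjusted p = 0.374). Fiona minus normal was -0.37, -0.26 and -0.21 in the same order, with adjusted p between 0.221 and 0.672. The order of Acat1 means was normal, fiona, mdx on all 3 probe sets, and neighbours in that order differed by less than the wider SD of the 2 groups.

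Slc16a1 encodes MCT1, which carries lactate, pyruvate and ketone bodies across the cell membrane with a proton. Its probe set 1415802_at read 10.72, 11.18, 9.64, 9.89 and 10.40 on fiona arrays 1 to 5. Mdx arrays ran from 10.17 to 10.80 with a median of 10.43, and normal arrays from 10.21 to 11.05 with a median of 10.66. All 3 groups overlapped, and the fiona arrays held both the highest and the lowest value. The means were 10.37 ± 0.62 in fiona, 10.46 ± 0.21 in mdx and 10.60 ± 0.33 in normal muscle.

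The Slc16a1 difference was -0.14 for mdx minus normal (95% interval -0.63 to 0.34, adjusted p = 0.669 in limma), -0.09 for fiona minus mdx (95% interval -0.60 to 0.41, adjusted p = 0.786) and -0.24 for fiona minus normal (95% interval -0.74 to 0.27, adjusted p = 0.554). These intervals reach as far as -0.74 and do not show equal levels.

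**Figure D2:**
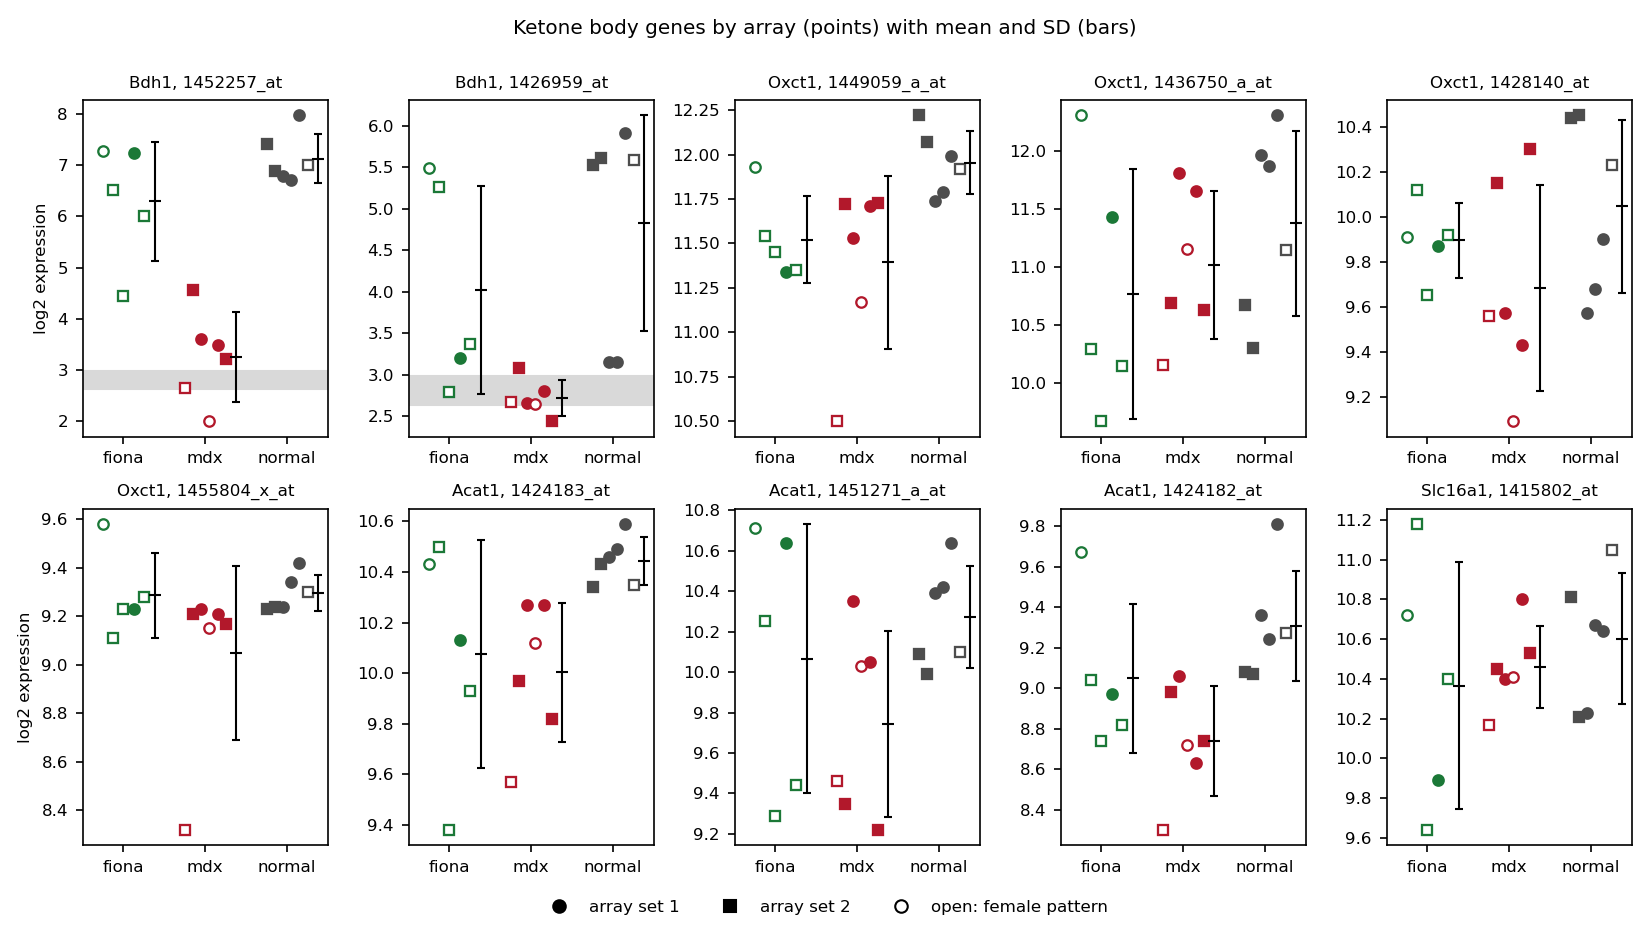
Log2 expression of the 10 probe sets of Bdh1, Oxct1, Acat1 and Slc16a1 on each array (points, in replicate order) with the mean and SD of each group (bars). Each panel has its own scale, the grey band in the Bdh1 panels is the range of control levels over the 17 arrays, circles and squares are array sets 1 and 2, and open symbols mark arrays of female pattern. Bdh1 is low on all mdx arrays, Oxct1 1436750_a_at parts by array set, and mdx array 1 is the lowest mdx point for Oxct1 1449059_a_at and 1455804_x_at and Acat1 1424183_at and 1424182_at.

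In all, 0 of the 8 tested probe sets of Oxct1, Acat1 and Slc16a1 were called for mdx minus normal at an adjusted p under 0.05 in limma, against 4.04% of all probe sets. All 8 differences were negative. Before adjustment 3 of 8 had a limma p under 0.05 and 5 of 8 an exact permutation p under 0.05. For signs and unadjusted p no share over all probe sets is given, here or in the other comparisons. Several of the 8 probe sets also read the same gene, so nothing is read from these counts. In 3 of the 8 the mdx arrays lay below all normal arrays, against 2.25% of all probe sets, and 2 of those 3 read the same Acat1 sequence. For fiona minus mdx 0 of 8 were called against 42.1% of all probe sets, and in 0 of 8 were the groups separate, against 35.0%. In that comparison 0 of 8 had an unadjusted limma p or exact permutation p under 0.05. For fiona minus normal 0 of 8 were called, with 1 of 8 under 0.05 before adjustment by limma and by the exact permutation test, and 0 of 8 were separate against 1.04% of all probe sets.

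**Figure D3:**
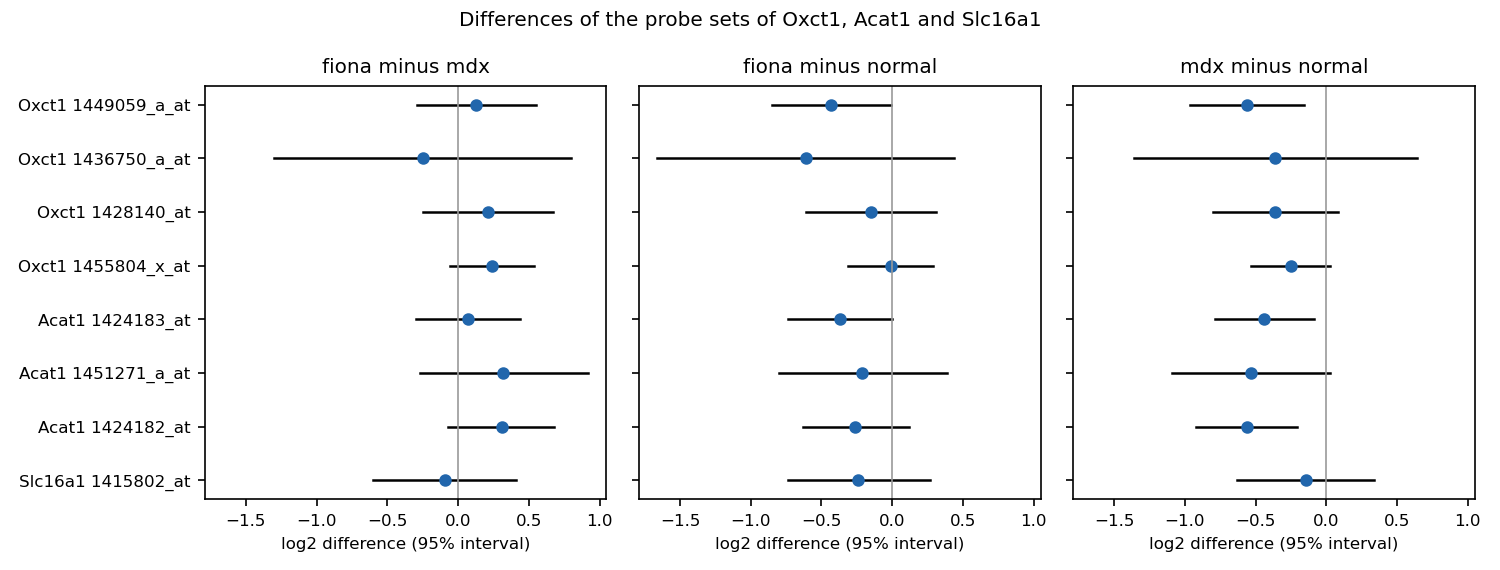
Log2 differences of the 8 probe sets of Oxct1, Acat1 and Slc16a1 (points) with 95% intervals from limma (lines), for fiona minus mdx, fiona minus normal and mdx minus normal. All 8 points lie left of 0 for mdx minus normal, and the intervals of Oxct1 1449059_a_at, Acat1 1424183_at and Acat1 1424182_at stay below 0 there. The intervals are not adjusted for the number of probe sets.

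The high count for fiona against mdx muscle includes many small differences. Of its 9516 called probe sets 85.5% were higher in fiona. With each array centred on its median 2473 were called, of which 49.6% were higher in fiona. With quantile normalization 3363 were called (72.2% higher), and with probe sets left out that were not above the control level in any group 3847 were called (70.4% higher). The control level itself was higher on fiona than on mdx arrays, as given above.

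The other genes of ketone body synthesis and use were scarce on these arrays. In a list of 8 such genes besides Bdh1, 4 were measured: Oxct1, Acat1, Oxct2a, a transferase of testis, and Aacs, which activates acetoacetate for lipid synthesis in the cytosol. The other 4 were not analysed here. Between mdx and normal muscle 0 of 4 were called, against 4.66% of all genes, with a list median of -0.25 and a median of -0.04 over all genes. With the replicate block over mdx and normal arrays Acat1 was called by gene too (adjusted p = 0.0273 in limma). In that setting 324 of all 12393 genes were called lower, against 179 without the block. Oxct2a averaged 2.34 ± 0.02 in mdx and 2.39 ± 0.06 in normal muscle, under the control level on every array of both groups. Aacs averaged 3.51 ± 0.02 in mdx and 3.52 ± 0.09 in normal muscle. For fiona minus mdx Oxct2a (0.08) and Aacs (0.16) were called, against 38.9% of all genes (32.1% higher and 6.79% lower in fiona). With each array centred on its median 0 of 4 were called, and without fiona array 5 neither was (adjusted p = 0.0638 for Aacs and 0.0966 for Oxct2a in limma). Oxct2a lay at or under the control level on every fiona array too, so its call is no change in a measured level.

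The list of monocarboxylate transporters and receptors for ketone bodies and related acids had 9 of 11 members measured. Between mdx and normal muscle 0 of 9 were called, with a list median of -0.04, equal to that of all genes. Slc16a3, the lactate exporter MCT4 of glycolytic fibres, differed by -0.25 (SE 0.81, adjusted p = 0.848 in limma), and its normal arrays had an SD of 1.71. Bsg, the chaperone basigin that brings MCT1 and MCT4 to the membrane, differed by -0.05 (adjusted p = 0.916). Emb, the related chaperone embigin, averaged 2.60 ± 1.08 in mdx and 1.93 ± 0.06 in normal muscle, a difference of 0.67 (adjusted p = 0.347). Both means lay under the lowest control level of any array, 2.64, so differences of Emb are not read as changes in a measured level. The transporters Slc16a6, Slc16a7 and Slc16a8, the sodium-coupled Slc5a8 and the hydroxybutyrate receptor Hcar2 differed by 0.04, -0.07, -0.03, -0.04 and -0.04. For fiona minus mdx Slc16a7 (0.36), Slc5a8 (0.10) and Hcar2 (0.08) were called, and 0 of 9 with each array centred on its median. Slc5a8 and Hcar2 lay at or under the control level on all 17 arrays, and so did Slc16a8, so that their differences are not changes in a measured level. Without fiona array 5 the calls of Slc5a8 and Hcar2 were lost (adjusted p = 0.058 and 0.063 in limma), and without fiona array 3 that of Slc16a7 (0.0899). Slc16a3 (0.62), Slc16a6 (0.23), Slc16a8 (0.05), Bsg (0.00) and Emb (-0.62) were not.

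Of 13 measured regulators of oxidative and ketone metabolism, 0 were called for mdx minus normal, with a list median of -0.33. With the replicate block over mdx and normal arrays 1 was called lower, Ppargc1a (adjusted p = 0.0291 in limma). With the array set as a block 3 were called lower, Ppargc1a (0.00841), Nrf1 (0.0363) and Ppara (0.0474). Calls rose over all genes too. Of all 12393 genes 324 were called lower with the replicate block and 528 with the array set block, against 179 without a block. The members with the smallest p were Ppargc1a, the coactivator PGC-1α, with -0.75 (SE 0.24, adjusted p = 0.0949 in limma), Esrra, the nuclear receptor ERRα, with -0.33 (adjusted p = 0.18), and Ppara, the nuclear receptor that drives fatty acid oxidation and ketone synthesis in liver, with -0.68 (adjusted p = 0.245). For fiona minus mdx 5 of 13 were called higher, a share near the 32.1% of all genes: Ppargc1b (1.21), Esrra (0.43), Nrf1 (0.34), Esrrg (0.25) and Ppard (0.10). With each array centred on its median 0 of 13 were called. Ppard lay at or under the control level on all 17 arrays, so its call is no change in a measured level. Ppargc1b lost its call without fiona array 4 (adjusted p = 0.0703 in limma), Esrra without array 1 (0.0505), and Esrrg and Nrf1 without array 3 (0.12 and 0.118), among others.

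Genes of branched-chain amino acid breakdown, the pathway that Acat1 also serves, had 3 of 19 measured members lower in mdx than in normal muscle and 0 higher, with a list median of -0.46. Over all genes 1.44% were called lower and 3.22% higher. The 3 were Pcca, a subunit of propionyl-CoA carboxylase, with -0.72 (adjusted p = 0.0208 in limma), Mccc2, a subunit of methylcrotonyl-CoA carboxylase, with -0.53 (adjusted p = 0.0315), and Mmut, methylmalonyl-CoA mutase, with -0.53 (adjusted p = 0.0457). All 3 calls were lost with each array centred on its median, at adjusted p of 0.0583, 0.0548 and 0.0873. Leaving out single arrays ended the call of Mmut in 10 of 12 fits, of Mccc2 in 6 and of Pcca in 3, with adjusted p up to 0.107. The replicate block over mdx and normal arrays ended that of Mccc2 (adjusted p = 0.0737 in limma) and added Auh, a hydratase of leucine breakdown (-0.51, 0.0355). In fiona against mdx muscle 2 of 19 were called higher, against 32.1% of all genes: Mmut (0.46) and Ivd, isovaleryl-CoA dehydrogenase (0.31). Neither was called after median centring (adjusted p = 0.162 and 0.319 in limma). Mmut also lost its call without fiona array 4 (0.0615), and Ivd without fiona array 1 (0.113).

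Among 11 measured genes of pyruvate and lactate handling, 3 fell in mdx against normal muscle, against 1.44% of all genes called lower. Ldhb, the heart-type lactate dehydrogenase of oxidative fibres, averaged 8.84 ± 0.57 in mdx and 10.44 ± 0.43 in normal muscle (SD, n = 6 each), a difference of -1.59 (SE 0.31, adjusted p = 0.00566 in limma). It kept its call in all 12 fits that left out 1 array and rose in fiona against mdx muscle by 1.32 (adjusted p = 0.0135), also with each array centred on its median (adjusted p = 0.0337), though not with the arrays of female pattern left out (0.75, adjusted p = 0.253). Mpc1, a subunit of the mitochondrial pyruvate carrier, fell by 0.50 (adjusted p = 0.0069) and had a call in all 12 such fits, but not with the arrays of female pattern left out (-0.42, adjusted p = 0.0628 in limma). Pdk4, the kinase that shuts the pyruvate dehydrogenase complex in fasting, fell by 1.63 (adjusted p = 0.0214), and its call depended on mdx array 4 and on normal arrays 3, 4 and 5 (adjusted p up to 0.0536 when 1 of them was left out). The replicate block over mdx and normal arrays ended it too (adjusted p = 0.117 in limma). In fiona against mdx muscle Mpc1 (0.27) and Pdhb, a subunit of that complex (0.20), were also called, but not after median centring. Mpc1 was not called without fiona array 1 (adjusted p = 0.12 in limma), nor Pdhb without fiona array 4 (0.09). With Ldhb 3 of 11 were called higher in fiona, against 32.1% of all genes.

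In the citrate cycle the acetyl-CoA from ketone bodies is burnt. Of its 16 measured genes 4 were lower in mdx than in normal muscle and 0 higher, with a list median of -0.28. Over all genes 1.44% were called lower and 3.22% higher. Suclg2 and Suclg1, subunits of the succinyl-CoA synthetase, changed by -1.13 (adjusted p = 0.0147 in limma) and -0.46 (adjusted p = 0.0182). Fh1, fumarase, fell by 0.39 (adjusted p = 0.00566). Sdha, the catalytic subunit of succinate dehydrogenase, fell by 0.57 (adjusted p = 0.0285), but its call was lost in 7 of 12 fits without 1 array, with adjusted p up to 0.0714. Suclg1 lost its call with each array centred on its median (adjusted p = 0.0641 in limma) and with the arrays of female pattern left out (0.0866). The replicate block over mdx and normal arrays added Idh2, the mitochondrial NADP-linked isocitrate dehydrogenase (-0.76, adjusted p = 0.0325). With that block 324 of all 12393 genes were called lower, against 179 without it. For fiona minus mdx Fh1 (0.40), Sdha (0.50), Sdhb, the iron-sulfur subunit (0.49), and Idh3a, a subunit of isocitrate dehydrogenase (0.40), were called higher. These 4 of 16 are a smaller share than the 32.1% of all genes called higher in fiona. After median centring 0 of 16 were called. Sdha also lost its call without fiona array 5 (adjusted p = 0.0545 in limma).

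**Figure D4:**
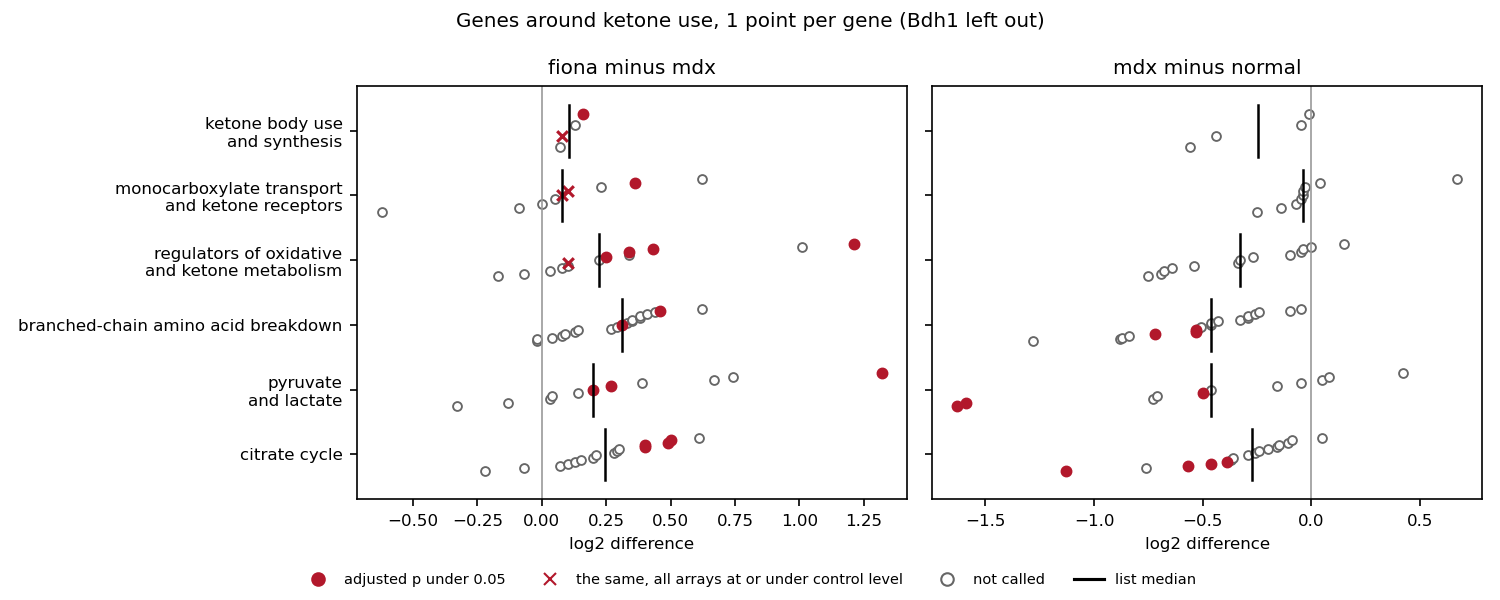
Log2 differences of the measured genes in 6 metabolic lists (1 point per gene, Bdh1 left out) for fiona minus mdx and mdx minus normal. Filled points and crosses are genes called at an adjusted p under 0.05 in limma, crosses are called genes at or under the control level on every array, open points were not called, and vertical bars are list medians. For mdx minus normal the called genes are 3 of branched-chain amino acid breakdown, 3 of pyruvate and lactate and 4 of the citrate cycle, all left of 0. For fiona minus mdx the called genes lie right of 0.

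Fibre type genes did not move as 1 group. Of 11 slow and oxidative fibre genes, 2 rose and 2 fell in mdx against normal muscle. Over all genes 3.22% were called higher and 1.44% lower. The slow myosin light chain Myl3 fell by 2.73 (adjusted p = 0.00223 in limma) and the fast oxidative myosin Myh2 fell by 2.40 (adjusted p = 0.0288, lost in 7 of 12 fits without 1 array, with adjusted p up to 0.0699, and with the replicate block over mdx and normal arrays, at 0.101). Tnni1, the slow troponin I, which is also made in immature fibres, rose by 4.16 (adjusted p = 0.00024), and Tpm3, the slow tropomyosin, rose by 0.95 (adjusted p = 0.00938). The mean over all Tpm3 probe sets differed by -0.03 (adjusted p = 0.868 in limma), and its call was lost with the arrays of female pattern left out (1.03, 0.0697). Of 12 fast fibre genes 0 were called, and the 3 with the smallest p were Tnnt3 (-0.14), Actn3 (-0.24) and Pvalb (-0.20). In fiona against mdx muscle Myh2 (2.56), Myl3 (1.91) and Mb, myoglobin (0.57), rose, the fast myosin Myh1 rose by 0.22, and of these Mb and Myh1 lost their calls after median centring (adjusted p = 0.0576 and 0.21 in limma). In the same comparison Tnni1 (-4.44), Tnnc1 (-2.73), Tnnt1 (-2.33), Atp2a2 (-1.91) and Tpm3 (-0.79) fell. Of the 11 slow and oxidative fibre genes 3 were thus called higher and 5 lower in fiona, and of the 12 fast fibre genes 1 higher. Over all genes 32.1% were called higher and 6.79% lower in fiona. The Tpm3 call was lost with quantile normalization (adjusted p = 0.056 in limma) and for the mean of its probe sets (-0.15, 0.387). With the arrays of female pattern left out fiona was array 4 alone, so only differences are given and no call is read from them. The differences were then 1.94 for Myh2, 0.92 for Myl3, 0.18 for Mb and 0.28 for Myh1. For Tnnc1, Tnnt1, Atp2a2 and Tpm3 they were -3.12, -2.37, -1.78 and -0.64.

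Genes of other cells moved with the mdx group, beside the low Bdh1. Over all genes 3.22% were called higher and 1.44% lower in mdx than in normal muscle. Of 12 macrophage genes 11 rose in mdx against normal muscle, and their mean level ran from 4.88 to 5.74 on fiona, 8.20 to 9.37 on mdx and 4.54 to 5.40 on normal arrays. Of 12 genes of regenerating fibres 10 rose, with mean levels of 5.14 to 5.54 on fiona, 6.60 to 8.93 on mdx and 4.83 to 5.12 on normal arrays. Of 9 fibroblast and matrix genes 3 rose, with mean levels of 7.69 to 9.33 on fiona, 9.73 to 11.05 on mdx and 8.51 to 9.67 on normal arrays. Of 8 adipocyte genes 2 fell, with mean levels of 6.02 to 6.37 on fiona, 5.78 to 6.38 on mdx and 6.42 to 7.43 on normal arrays. Endothelial, erythroid and Schwann cell genes had 0 calls of 10, 5 and 7, and the liver genes, a check for a tissue that should be absent, had mean levels of 2.51 to 2.76 over all arrays. Of the 10 muscle identity genes 1 fell, the titin cap gene Tcap, at -0.74 (adjusted p = 0.0451 in limma). In that list 0 genes were called with median centring, with the replicate block over mdx and normal arrays or with the arrays of female pattern left out. With the array set as a block 2 of the 10 were called higher and 2 lower, against 710 and 528 of all 12393 genes. That block added Des (0.36, adjusted p = 0.0334 in limma), Myf6 (0.47, 0.028) and Mb (-0.43, 0.0105). The part of these cells in the values of Bdh1, Oxct1 and Acat1 was not tested.

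Within the mdx group the array with the highest Bdh1 was not the one with the lowest macrophage level. Mdx array 2, at 4.56 for Bdh1, had a macrophage level of 8.42 and the lowest regenerating fibre level of the group, 6.60. Mdx array 4, at 2.00 for Bdh1, had the lowest macrophage level, 8.20, and a regenerating fibre level of 8.83. Mdx array 1, at 2.65 for Bdh1, had the highest level of both lists, 9.37 and 8.93. On fiona array 3, the fiona array with the lowest Bdh1 (4.44), the macrophage level was 5.53 and the regenerating fibre level 5.33. Both lay within the range of the other fiona arrays. Mdx arrays 1 and 4 lay under their control levels of 2.72 and 2.69 for Bdh1, so their order is not known. Whether Bdh1 follows these cells was not tested.

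For each of the 4 genes the 5 genes with the most similar profile over the 17 arrays were taken from 9385 genes above the control level in at least 1 group. Those most like Bdh1 1452257_at were Htatsf1 (Pearson r 0.910), E2f6 (0.903), Lpl (0.901), Dym (0.896) and Pdzrn3 (0.880). Lpl, lipoprotein lipase, which frees fatty acids from blood lipids, averaged 12.55 in fiona, 11.55 in mdx and 12.72 in normal muscle. Those most like Oxct1 were Aktip (0.896), Kif21a (0.895), Map4k5 (0.892), Senp6 (0.885) and Aqp1 (0.879). Acat1 was most like Lactb2 (0.928), Usp15 (0.889), Isoc1 (0.887), Cdadc1 (0.884) and Gphn (0.881), and Slc16a1 most like Snapin (0.777), Fars2 (0.770), Pcyox1 (0.761), Mmadhc (0.751) and Senp2 (0.736). The 4 genes thus had no neighbour in common among these 20. These coefficients describe arrays that share groups and array sets, and carry no test.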

How the data were processed

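The authors deposited a table of log2 expression values per probe set for 17 Affymetrix arrays. Per the submitters' processing notes RMA and GCRMA were used, and which of them made the table, and the genome build, are not given in the sources used here. Of 22690 probe sets 64 controls were left out. Symbols came from the platform table (20380 probe sets with 1 symbol, 691 with several, 1555 with none), and 12369 of 12393 genes were found in the RefSeq gene table, which changed 0 symbols. Promoter windows came from RefSeq, which held 3 of the 4 genes.

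Group means of all 3 groups were fitted together (lmFit and eBayes of limma 3.58.1, under R 4.3.3) on the values as deposited, with Benjamini-Hochberg adjustment over all 22626 probe sets, or, for gene lists, over 12393 genes with the brightest probe set of each. Calls are at an adjusted p under 0.05. Single probe sets also had two-sided exact permutation tests. The fit was tested on simulated data. The number of arrays limits the precision. P-values measure the spread between arrays, which are labelled as biological replicates.

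The member genes and the gene lists were chosen with earlier results of these data known. Named were all probe sets of the 4 genes, all measured genes of the ketone and transport lists, from each other metabolic or fibre list the 3 genes with the smallest p for mdx minus normal and any called gene, and 5 similar genes each. Bdh1 is left out of list counts.

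Deviations from group means of same-numbered mdx and normal arrays correlated at 0.11 to 0.60 in all 6 pairs, so the numbers were taken to pair them. Same-numbered mdx and normal arrays also lie in the same array set, and pairing and array set cannot be told apart in this check. Those of fiona with mdx or normal arrays ran from -0.51 to 0.48, positive where both lie in the same array set, and do not pair. The alternatives were median centring, quantile normalization, a filter on dim probe sets, replicate and array set blocks, the female pattern as a covariate or left out, other variance settings, each array set alone, values raised to the control level, the mean of probe sets, and leaving out each array. Figures used Python 3.11.15 and matplotlib 3.10.9.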

Additional observations from a re-analysis of the deposited data

Results flagged for a closer look

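On the Oxct1 probe set 1455804_x_at, mdx array 1 read 8.32, far below the next mdx array at 9.15. This was the only 1 of 30 combinations of probe set and group with a lowest or highest array so far from the others of its group, and chance alone gives about 1 in 20. The same array was also the lowest of the mdx group on Oxct1 1449059_a_at (10.50) and 1436750_a_at (10.16), on Acat1 1424183_at (9.57) and 1424182_at (8.30) and on Slc16a1 1415802_at (10.17), and so on 6 of the 8 tested probe sets. It is one of the arrays of female pattern and had the highest macrophage level of the group, 9.37. The part of either in the Oxct1 value was not tested.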

How the results depend on the processing

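Of the alternative values for the tested probe sets of Oxct1, Acat1 and Slc16a1, 614 kept their side of the threshold and 11 passed it. For Bdh1 142 values shifted by less than the pooled SD within groups and 6 by more. The filter on dim probe sets and the other variance settings cannot change a Bdh1 difference. These counts are thus no measure of how stable Bdh1 is. Its 1452257_at difference for fiona minus mdx was 4.22 in array set 1 and 2.18 in set 2, and for fiona minus normal it was 0.10 in set 1 and 0.08 without the arrays of female pattern, with or without mdx array 6, a setting chosen after seeing the data. With 1426959_at fiona minus normal was 0.27 in set 1, against -0.80 over all arrays. Unadjusted exact permutation tests passed for Oxct1 1449059_a_at in mdx minus normal (-0.56, p = 0.00216) and fiona minus normal (-0.43, p = 0.0152) and for Acat1 1424183_at in mdx minus normal (-0.44, p = 0.00216), as well as in mdx minus normal for Acat1 1424182_at (p = 0.00216) and 1451271_a_at (p = 0.0325) and Oxct1 1455804_x_at (p = 0.00433). The replicate block over the mdx and normal arrays, added after seeing the data, gave Acat1 1424183_at -0.44 (adjusted p = 0.0338 in limma) and 1 called probe set of 8 where 0 were called without it. The block changed no other call of these probe sets, and with it 1058 of all 22626 probe sets were called. With the array set as a block 2 of 8 were called for mdx minus normal, against 1920 of all 22626 probe sets. In array set 1 alone 2 of 8 were called for fiona minus mdx, against 8544 of all 22626 probe sets.

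Over all gene lists 70 genes were called for fiona minus mdx, against 40 with median centring, 29 with the replicate block, and 23 and 16 without the arrays of female pattern and without these and mdx array 6. For mdx minus normal 41 were called, against 26 in the last setting. For fiona minus normal 0 were called, against 4 and 5 in these 2 settings and 0 to 9 with 1 array left out, the 9 without fiona array 2. Over all probe sets fiona minus mdx had 9516 calls and 4529 with the replicate block, where numbers do not pair, 3169 and 2082 without the arrays of female pattern and without these and mdx array 6, and 8544 and 122 in array sets 1 and 2. For mdx minus normal the 913 calls became 1920 with the array set as a block, 545 and 374 without those arrays, and 6032 and 381 in array sets 1 and 2. For fiona minus normal 1 call became 10 with the array set as a block, 1013 and 917 without those arrays, and 2147 without fiona array 2. By gene, fiona minus mdx had 4818 calls, against 1438 with median centring, 1905 with quantile normalization, 2133 without dim probe sets, 509 with the replicate block, 1586 and 962 without those arrays and 3191 without fiona array 5. For mdx minus normal 578 genes were called, against 1238 with the array set as a block, and 382 and 276 without those arrays. For fiona minus normal 0 genes were called, against 19 with the array set as a block, 466 and 410 without those arrays and 974 without fiona array 2. Without the arrays of female pattern fiona is array 4 alone, assumed to vary like the other groups, and the causes were not tested. Probe sets near the control level, as Bdh1 in mdx muscle, give only bounds.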

Other observations

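The 5 fiona arrays differed in their utrophin signal. On fiona arrays 1 to 5 the Utrn probe set 1426892_at read 6.39, 2.68, 3.54, 7.02 and 3.02, and 1427569_a_at read 4.94, 3.04, 3.78, 7.28 and 2.48. Arrays 1 and 4, the highest on both, were also the highest in Bdh1, at 7.28 and 7.23 with 1452257_at. The other 3 arrays read 6.51, 4.44 and 6.00 for Bdh1 in no such order. The other Bdh1 probe set, 1426959_at, did not follow this, with 3.20 on array 4 and 5.26 on array 2. Bdh1 was chosen by its values on these arrays, so the match supports nothing. Arrays 1 and 4 are also the fiona arrays of array set 1, so utrophin signal and array set cannot be told apart here. With 5 arrays no correlation was computed. The brightest Utrn probe set, 1452222_at, did not separate the groups, with 5.21 to 7.36 on fiona, 6.45 to 7.59 on mdx and 6.50 to 7.11 on normal arrays.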
